A study of Mus musculus with 45 samples.

Results

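The 10 genes described here encode transcription factors of the ETS family other than GABPA: Elf1, Elf2, Elf3, Elk1, Elk4, Etv4, Etv5, Etv6, Ets2 and Spic. They were chosen by symbol, each symbol matched 1 gene, and they are 10 of the 55385 genes in each deposited RNA table. All 18 RNA libraries came from mouse embryos or embryonic stem (ES) cells in which both alleles of Gabpa carried a degron tag (Gabpa-dTAG/dTAG). The small molecule dTAG13 removes the tagged GABPA protein, and controls of the same genotype received the solvent DMSO. Embryos received 1 μM dTAG13 or DMSO, from 6 to 30 h post fertilization (hpf) for the late two-cell stage (3 libraries a treatment), from 42 hpf for the morula (2 a treatment) and from 84 to 100 hpf for the inner cell mass of the blastocyst (E4.5 ICM, 2 a treatment). ES cells (2iES, 2 libraries a treatment) received 0.5 μM dTAG13 for 24 h. The ICM was isolated by immunosurgery and holds epiblast (EPI) and primitive endoderm (PrE). The 2iES cells were grown with LIF, 0.5 μM of the MEK inhibitor PD0325901 and 3 μM of the GSK3 inhibitor CHIR99021, and the tagged line was picked as a single clone. Every group, controls included, carried the tag, and no untagged library was compared here.

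ETS factors share a winged helix-turn-helix DNA-binding domain that reads a GGAA core, and the flanking bases and partner proteins set which member binds where. GABPA works with a GABPB partner at promoters that hold CCGGAAGT-like sequences, a motif that several other members also bind. Elk1 and Elk4 are ternary complex factors that bind beside serum response factor (SRF) and are activated by ERK phosphorylation. Etv4 and Etv5 belong to the PEA3 group and are widely used as readouts of fibroblast growth factor (FGF) and ERK signalling, the pathway that separates PrE from EPI in the ICM and that is blocked by the MEK inhibitor in 2iES medium. Elf1 and Elf2 are broadly expressed activators, Elf3 is an epithelial member, Etv6 is a repressor, Ets2 acts in trophoblast and downstream of ERK, and Spic is a relative of PU.1 known from macrophages.

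In GRCm38, the build of the files, Elk4 lies at chr1:132007607-132032612 (plus strand), Elf3 at chr1:135253575-135258568 (minus), Elf2 at chr3:51252720-51340663 (minus), Etv6 at chr6:134035700-134270158 (plus), Spic at chr10:88674772-88685015 (minus), Etv4 at chr11:101769742-101785371 (minus), Elf1 at chr14:79481194-79582494 (plus), Etv5 at chr16:22381309-22439719 (minus), Ets2 at chr16:95702075-95721051 (plus) and Elk1 at chrX:20933395-20950608 (minus). All are annotated as protein coding. Each value below sums reads over all exons of all transcripts of a gene. The libraries do not mark strand, so reads in exons shared with an antisense gene cannot be assigned. Such overlap with genes on either strand covered at most 7.31% of exonic bases (Elf3, with the antisense gene Gm26642, at most 0.37 TPM in any library). Etv5 shared 30.27% of its 31-base words with Gm4798, and that gene was at most 0.11 TPM in any library. Elf1 overlaps Wbp4 (11.6 to 35.7 TPM) over 4.85% of its exonic bases. Elk1, with 11 to 68 counts a library, overlaps Uxt (48.1 to 226 TPM) on the same strand over 1.41%.

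RefSeq promoter windows of GRCm38.p6, running from 250 bases before to 50 bases after a gene start, were found for 9 of the 10 genes and not for Etv4. They were searched on both strands for GGAA, for CCGGAA and for CCGGAAGT, of which each longer one holds the shorter. The full CCGGAAGT was found in 1 of the 9 genes, Elk4, against 4.31% of the 27025 genes searched (3.89% of 32851 windows). That same window was the only one of the 9 genes' 14 windows with CCGGAA, which 14.9% of all windows hold. All 9 genes had GGAA or TTCC in a window, as did 96.48% of all genes. The stretches below are shown because Elk4, Spic, Etv5 and Elf1 give the main results, and they stop where an annotated exon begins. Capitals mark GGAA and its reverse complement TTCC. Windows are placed on RefSeq starts, which can differ from the annotated starts given above: by 13 bases in Elk4 and 149 in Etv5, each inside the annotated gene, and by 0 in Elf1. The RefSeq start of Spic is internal, 1992 bases inside the annotated gene, so its stretch lies within that gene. The match in Elk4 starts 68 bases before the RefSeq start and 55 before the annotated one. The printed stretch of Etv5 holds neither GGAA nor TTCC, which are in the other window of that gene. They come from chr1:132007370-132007606 (plus strand, Elk4), chr10:88683024-88683273 (minus, Spic), chr16:22439720-22439820 (minus, Etv5) and chr14:79480944-79481193 (plus, Elf1). A match of letters is a description of the sequence and not a binding site.
Elk4: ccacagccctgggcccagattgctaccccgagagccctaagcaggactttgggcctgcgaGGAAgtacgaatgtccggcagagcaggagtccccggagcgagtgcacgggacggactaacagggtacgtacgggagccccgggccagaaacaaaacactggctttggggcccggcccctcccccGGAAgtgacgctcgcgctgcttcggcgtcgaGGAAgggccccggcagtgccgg
Spic: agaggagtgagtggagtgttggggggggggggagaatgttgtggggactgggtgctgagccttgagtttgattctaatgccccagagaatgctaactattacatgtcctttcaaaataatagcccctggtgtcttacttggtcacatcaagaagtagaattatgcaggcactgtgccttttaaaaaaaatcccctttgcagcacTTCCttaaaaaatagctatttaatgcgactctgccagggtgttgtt
Etv5: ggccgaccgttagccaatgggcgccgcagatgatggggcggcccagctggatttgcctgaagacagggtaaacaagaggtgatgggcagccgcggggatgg
Elf1: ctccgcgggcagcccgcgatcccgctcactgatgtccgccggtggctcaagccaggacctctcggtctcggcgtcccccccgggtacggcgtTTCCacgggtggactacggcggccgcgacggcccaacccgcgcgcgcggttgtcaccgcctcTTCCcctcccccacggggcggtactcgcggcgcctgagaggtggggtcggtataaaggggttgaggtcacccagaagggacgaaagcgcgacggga

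Library totals ran from 9457933 to 27660132 expected counts and were lowest in the morula (9457933 to 12382705). Gabpa messenger RNA does not check the treatment, because dTAG13 acts on the protein. It was 10.1 and 11.2 TPM in control ICM and 27.5 and 27.3 TPM with dTAG13. The 2 ICM replicates of a treatment differed little more than counting noise (1.62 and 1.67 times the sampling variance, against 2.85 to 16.3 elsewhere). The study calls its replicates biological, but no source used here says which animals or cultures they came from, so p-values measure the spread between these libraries, which may be technical. In the embryo controls the 5 two-cell markers matched the labels. They summed to 141 to 271 TPM at the late two-cell stage and to at most 1.5 TPM in the morula and ICM. The 7 PrE markers summed to 375 and 377 TPM in the ICM, but already to 212 and 222 TPM in the morula. The 8 trophectoderm markers summed to 345 and 358 TPM in the morula and to 67.5 and 73.4 TPM in the ICM. Their sum was 141 and 110 TPM in 2iES. In 2iES controls the EPI markers summed to 315 and 431 TPM and the PrE markers to 4.31 and 2.63 TPM. One library stood apart, the late two-cell dTAG13 replicate 1, with 232 TPM summed over 5 macrophage markers against 6.1 to 11.4 TPM in the other late two-cell libraries.

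Levels are given as TPM, a transcript abundance scaled by gene length and by the library's total. In control embryos the makeup of the 10 factors turned over between stages. Their summed level was 1220 to 1304 TPM at the late two-cell stage, 201 and 285 TPM in the morula, 271 and 278 TPM in the ICM and 80.2 and 77.8 TPM in 2iES. Spic alone made up a mean of 95.9% of that sum at the late two-cell stage. In the morula Spic made up 42.7% and Elf3 41.9%, and in the ICM Elf3 made up 58.2% and Spic 20.2%. In 2iES Elf2 came first with 31.8%, followed by Spic with 20.5% and Etv5 with 16.9%.

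**Figure D1:**
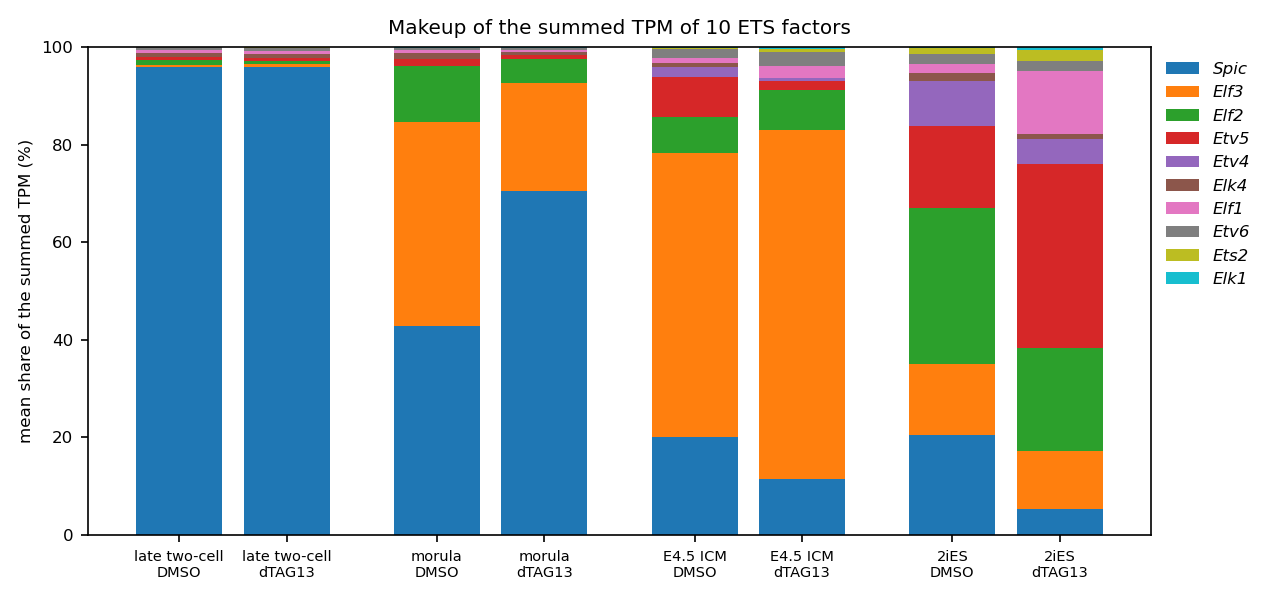
Mean share (%) of the summed TPM of the 10 ETS factors taken by each factor (colours), with 1 stacked bar for each stage and treatment; n = 3 libraries at the late two-cell stage and 2 elsewhere. Spic fills 95.9% of the late two-cell control bar, Elf3 58.2% of the ICM control bar, and Etv5 37.8% of the 2iES dTAG13 bar.

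Spic was the one member above 100 TPM at the late two-cell stage, with 1241, 1256 and 1166 TPM in the 3 controls. It then stood at 65.8 and 150 TPM in the morula, 56.0 and 54.7 TPM in the ICM and 14.6 and 17.8 TPM in 2iES. The ranges of neighbouring stages did not overlap, and the 2 morula controls lay furthest apart. Elf3 took the opposite course in the embryo: 6.59, 6.89 and 4.76 TPM at the late two-cell stage, 101 and 95.6 TPM in the morula and 158 and 162 TPM in the ICM. In 2iES it was back at 12.8 and 10.2 TPM. Elf2 was 16.7, 7.84 and 14.9 TPM at the late two-cell stage and 18.4 to 29.8 TPM in the controls of the 3 later stages. Its effective length of 546 to 1170 bases moved between libraries, so short isoforms weigh on its TPM.

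The PEA3 pair was low early and high late. Etv5 was 6.99, 5.65 and 7.42 TPM at the late two-cell stage, 3.51 and 3.04 TPM in the morula, 22.6 and 22.4 TPM in the ICM and 12.7 and 14.1 TPM in 2iES. Etv4 held at most 4 counts in any control before the ICM, then stood at 5.73 and 5.68 TPM in the ICM and 7.75 and 6.93 TPM in 2iES. Elk4, a ternary complex factor, ran the other way, with 10.6, 13.5 and 10.4 TPM at the late two-cell stage, 1.94 and 3.73 TPM in the morula, 2.14 and 1.95 TPM in the ICM and 0.94 and 1.40 TPM in 2iES. Elf1 was 7.78, 5.69 and 9.20 TPM at the late two-cell stage and 1.37 to 2.98 TPM in every later control. Etv6 was 6.12, 8.00 and 5.50 TPM at the late two-cell stage, 0.58 and 0.97 TPM in the morula, 4.64 and 5.07 TPM in the ICM and 1.23 and 1.97 TPM in 2iES. Its effective length was 2097 to 3165 bases at the late two-cell stage and 5112 to 5529 bases in later controls. Elk1 and Ets2 stayed at or below 1.10 TPM in all 9 controls.

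**Figure D2:**
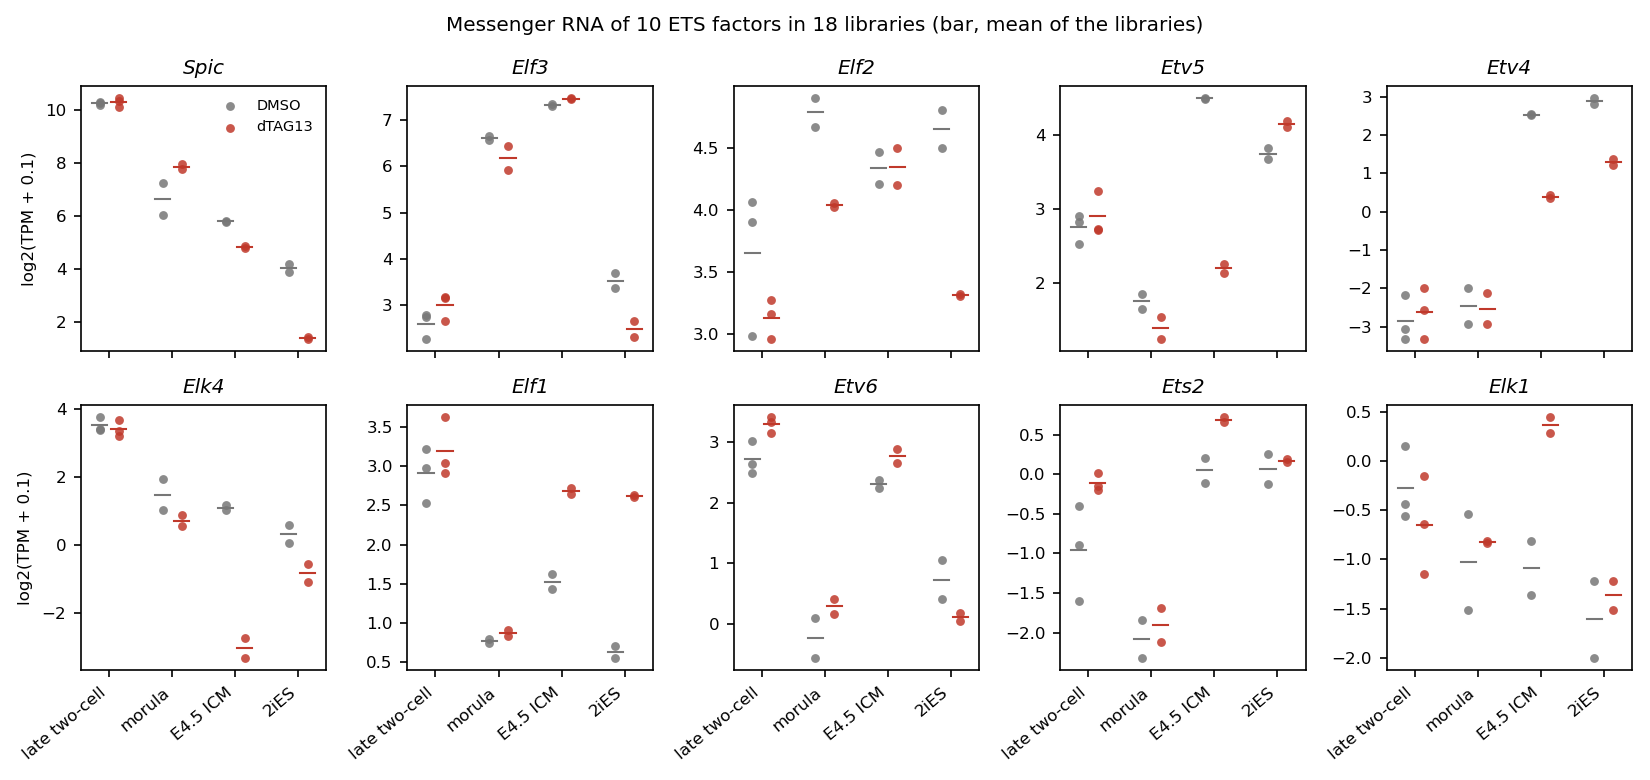
Level of each factor in every library as log2(TPM + 0.1), by stage, for DMSO (grey) and dTAG13 (red); points are libraries, short bars their means, and each panel has its own axis range. Spic falls along the stages, Elf3 peaks in the ICM, and the red and grey points of Etv5 separate in opposite directions in the ICM and in 2iES.

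In the order of mean control levels at the late two-cell stage, Spic came first and Elf2 second, and then Elk4, Elf1, Etv5, Etv6, Elf3, Elk1, Ets2 and Etv4. The ranges of Elf2 and Elk4 overlapped, as did those of neighbours from Elf1 to Elf3 and of Elk1 and Ets2. In the morula Spic and Elf3 overlapped at the top, and Etv5 and Elk4, Etv6 and Elk1, and Ets2 and Etv4 overlapped further down. In the ICM the order was Elf3, Spic, Etv5, Elf2, Etv4, Etv6, Elf1, Elk4, Ets2 and Elk1, and no 2 neighbours overlapped. In 2iES it was Elf2, Spic, Etv5, Elf3, Etv4, Etv6, Elf1, Elk4, Ets2 and Elk1, with overlap of Etv5 with Elf3 and of each neighbour from Etv6 to Ets2.

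The control stages were compared in 1 model over the 9 DMSO libraries. From the late two-cell stage to the morula, 5 of 10 members fell and 3 rose at an adjusted p under 0.05, while 38.0% of the 19830 genes tested fell and 31.2% rose. The median log2 fold change was -0.757 over the members and -0.281 over all genes. Spic fell by 3.24 ± 0.28 on the log2 scale (SE, adjusted p = 5.03e-07), and Elk4 fell by 2.15 ± 0.27 (adjusted p = 1.65e-05). Elf1 fell by 1.98, Etv6 fell by 1.70 and Etv5 fell by 0.63 on the same scale. Elf3 rose by 4.29 ± 0.18 (adjusted p = 1.77e-09) and Elf2 by 1.28 ± 0.30 (adjusted p = 0.00246). Etv4 passed at adjusted p = 0.0474 on 0, 1 and 2 counts against 4 and 1, and it stayed past the threshold in 5 of 15 alternatives. Leaving out any of 7 control libraries ended that call, all but late two-cell replicate 3 and morula replicate 2, with an adjusted p of up to 0.619 (without morula replicate 1).

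From the morula to the ICM, 2 members fell and 4 rose, against 21.0% and 24.6% of all genes. The 4 that rose include both PEA3 factors, Etv4 by 5.32 ± 0.54 (adjusted p = 9.84e-06) and Etv5 by 2.40 ± 0.18 (adjusted p = 8.04e-07), with Ets2 by 2.44 ± 0.58 and the repressor Etv6 by 2.22 ± 0.32. Spic fell by 1.18 ± 0.27 (adjusted p = 0.00343) and Elk4 fell by 1.43 ± 0.30 (adjusted p = 0.00206), neither of them past the threshold on log2(TPM + 1) (0.0634 and 0.379). Between the 2iES and ICM controls, 3 members were lower in 2iES and 1 was higher, against 20.7% and 21.9% of all genes. Elf3 was lower by a log2 fold change of -3.18 ± 0.20 (adjusted p = 3.54e-07), Spic by -1.17 ± 0.27 (adjusted p = 0.00437) and Etv6 by -0.90 ± 0.29 (adjusted p = 0.0242). Etv4 was higher by 1.10 ± 0.34 (adjusted p = 0.0214) but not when scaled by library totals (0.63, adjusted p = 0.168). Library totals also moved members that had not passed. Etv5 went from -0.13 to -0.60 (adjusted p = 0.0115), Elf1 from -0.27 to -0.74 (adjusted p = 0.0362) and Elk4 from 0.24 to -0.23 (adjusted p = 0.569). On log2(TPM + 1) Etv5 was -0.71 (adjusted p = 0.00808). Single libraries carried several of these calls: without 2iES replicate 1 the adjusted p was 0.0548 for Spic and 0.195 for Etv6, and leaving out any 1 of the 4 ICM or 2iES controls took Etv4 to 0.0852 to 0.153. Etv6 also missed the threshold without ICM replicate 1 (0.0799) or 2 (0.132).

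The remaining comparisons ask what loss of GABPA does to the other ETS factors at each stage. A gene was called when its adjusted p was under 0.05, its fold change at least 2 and its mean FPKM (a length- and depth-scaled fragment count) at least 1 in 1 of the 2 groups.

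At the late two-cell stage none of the 9 members tested was called or passed the adjusted p, while 3.63% of 17421 genes were called lower and 0.476% higher, and 7.24% and 1.32% passed the adjusted p. One member, Ets2, had an unadjusted p under 0.05 in edgeR, and 0 passed the adjusted threshold in DESeq2. Spic was 1406, 1305 and 1124 TPM with dTAG13, which overlaps the controls (log2 fold change -0.06 ± 0.10, adjusted p = 0.794). The sign of that value turned with the scaling. Elk4, at 10.1, 9.11 and 12.6 TPM with dTAG13, also overlapped the controls (-0.09 ± 0.15, adjusted p = 0.813). Ets2 had the value furthest from 0, 1.08 ± 0.43 (adjusted p = 0.181), on 54 to 67 counts with dTAG13 and 18 to 43 in controls. Elf1 was 12.2 TPM in the library with macrophage markers and 7.41 and 8.09 TPM in the other dTAG13 libraries. Its log2 fold change was 0.19 ± 0.22 with that library and -0.05 without it. Etv4 was not tested (at most 6 counts in any library). The members' median log2 fold change was 0.012, and that of all genes 0.024.

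In the morula none of the 8 members tested was called or passed the adjusted p, and 0.198% of 13667 genes were called lower and 0.154% higher, with 0.205% and 0.161% past the adjusted p. At an unadjusted p under 0.05 edgeR had 2, Spic and Elf2, and DESeq2 had 1 past its adjusted threshold, Spic. Spic was 65.8 and 150 TPM in controls and 247 and 216 TPM with dTAG13, so both treated libraries lay above both controls. Its log2 fold change was 1.04 ± 0.28 (adjusted p = 0.143). It was called in 5 of 12 alternatives, among them DESeq2 (1.06, adjusted p = 0.0254), all 18 libraries in 1 model (1.12, adjusted p = 0.0146), the replicate number as a block (1.14, adjusted p = 0.000237) and the comparison without DMSO replicate 2 (1.70, adjusted p = 0.00134). Elf2 was 25.4 and 29.8 TPM in controls and 16.2 and 16.6 TPM with dTAG13 (-0.72 ± 0.24, adjusted p = 0.239). Elk4 was 1.94 and 3.73 TPM against 1.37 and 1.73 TPM (-0.67 ± 0.38, adjusted p = 0.47). Etv4 and Ets2 held at most 12 counts in any morula library and were not tested. In the same libraries the 5 two-cell markers summed to 0.00 and 1.48 TPM in controls and 6.25 and 3.29 TPM with dTAG13. Of 3 tested, 1 was called higher in edgeR (Tdpoz4, named after its value was seen) and 0 passed in DESeq2. The part of embryo stage in the level of Spic was not tested.

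In the E4.5 ICM 6 of 10 members were called, 4 lower and 2 higher, against 13.2% and 12.1% of 15840 genes. At the adjusted p alone, 4 were lower and 5 higher, where 38.5% of all genes were lower and 38.4% higher. The members' median log2 fold change was 0.061 and that of all genes 0.006. Elk4 was nearly undetected after treatment. It had 45 and 53 counts in controls and 2 and 0 counts with dTAG13 (2.14 and 1.95 TPM against 0.05 and 0.00 TPM), and it was at least 15.9-fold lower when the treated libraries are set at 3 counts each (adjusted p = 2.21e-10). Both treated libraries lay far below both controls. Elk4 passed the filter on low counts and the FPKM limit only through its control libraries, so its adjusted p adds little to the counts themselves. With 1 control library left out, Elk4 did not pass the filter on low counts and was not tested.

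The PEA3 factors fell together in the ICM. Etv5 was 22.6 and 22.4 TPM in controls and 4.28 and 4.70 TPM with dTAG13, and fell by 2.36 ± 0.06 on the log2 scale (adjusted p = 9.50e-29). Etv4 was 5.73 and 5.68 TPM against 1.18 and 1.25 TPM, and fell by 1.94 ± 0.17 (adjusted p = 8.35e-13). Spic, 56.0 and 54.7 TPM in controls, was 28.8 and 27.4 TPM with dTAG13, and fell by 1.08 ± 0.06 (adjusted p = 4.68e-19). That value lies near the limit of a 2-fold change. With upper-quartile scaling it was -0.97, on log2(TPM + 0.1) -0.98 and on log2(TPM + 1) -0.96, each past the adjusted p but not called.

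Elf1 and Elk1 rose in the ICM. Elf1 was 2.98 and 2.59 TPM in controls and 6.51 and 6.14 TPM with dTAG13 (1.20 ± 0.10, adjusted p = 1.28e-13). Elk1 was 0.29 and 0.47 TPM against 1.12 and 1.26 TPM, on 22 to 65 counts (1.23 ± 0.27, adjusted p = 0.000126). Elk1 was not called without DMSO replicate 1 (0.88, adjusted p = 0.0148) or with all 18 libraries in 1 model (1.24, adjusted p = 0.0812). Etv6 rose by 0.45 ± 0.07, Ets2 by 0.51 ± 0.19 and Elf3 by 0.09 ± 0.03, all short of a 2-fold change, and none of these 3 passed with all 18 libraries in 1 model (adjusted p = 0.167, 0.352 and 0.756). Without DMSO replicate 1 the adjusted p was 0.209 for Ets2 and 0.254 for Elf3, and without DMSO replicate 2 it was 0.0845 for Elf3. Elf3 stayed the highest of the 10, with 178 and 175 TPM against 158 and 162 TPM. Elf2 was 18.3 and 22.5 TPM against 18.4 and 22.0 TPM (0.03 ± 0.08, adjusted p = 0.746).

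The cell type markers moved in the same libraries. Immunosurgery, by which the ICM was isolated, is meant to remove the trophectoderm. All 8 trophectoderm markers rose, from a sum of 67.5 and 73.4 TPM to 773 and 774 TPM. All 7 EPI markers fell, from 491 and 501 TPM to 204 and 197 TPM. Of 7 PrE markers 4 rose and 2 (Sox17 and Sox7) fell, with a median log2 fold change of 0.595. By the full call 1 was higher and 0 lower. Their sum, on which the most abundant markers weigh most, went from 375 and 377 TPM to 754 and 757 TPM. None of these 3 lists had a marker at 0 in an ICM library. Fewer cells of a type and less RNA per cell cannot be told apart in these bulk libraries, and the part of the cell makeup in the members' changes was not tested.

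**Figure D3:**
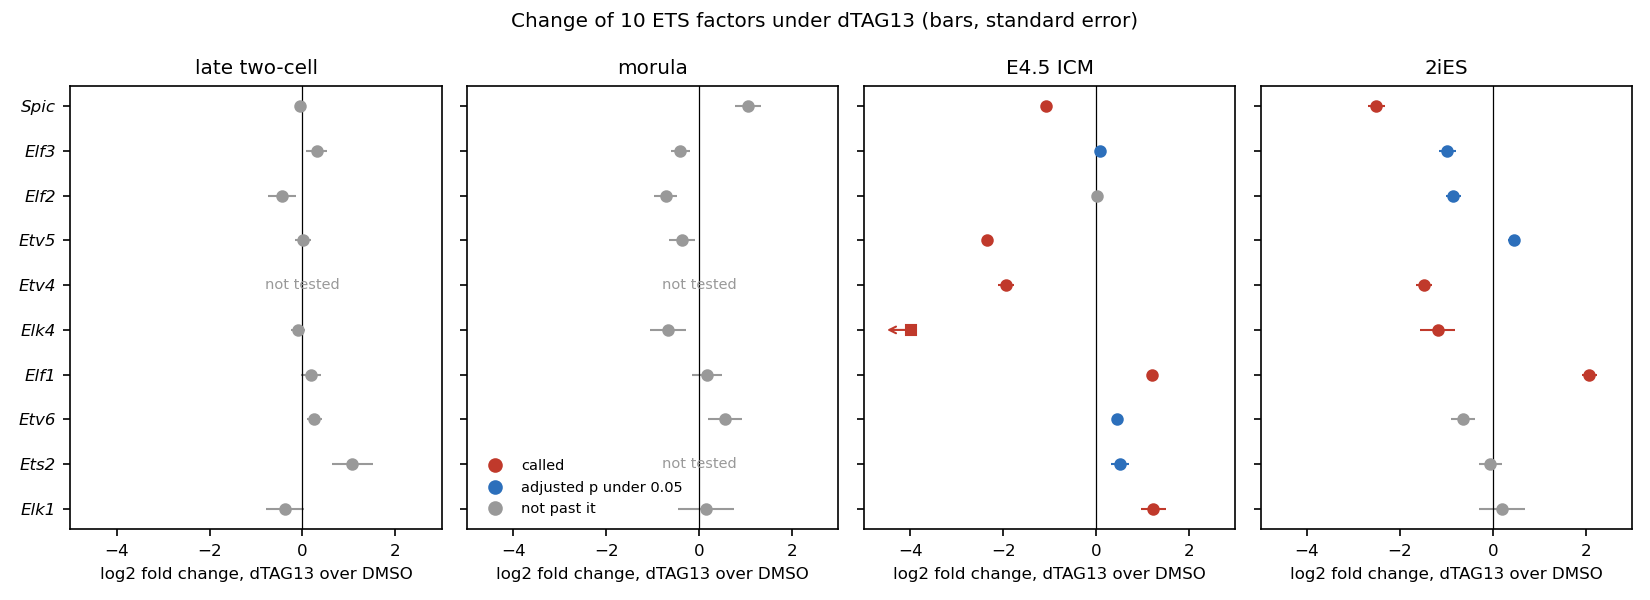
Log2 fold change of each factor under dTAG13 against DMSO at the 4 stages, with standard errors; red, called; blue, adjusted p under 0.05 only; grey, neither. The square with an arrow is the bound for Elk4 in the ICM (at least 15.9-fold lower), and no point is red in the late two-cell and morula panels.

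In 2iES 4 of 10 members were called, 3 lower and 1 higher, against 15.6% and 12.4% of 15511 genes. At the adjusted p alone, 5 were lower and 2 higher, where 28.1% of all genes were lower and 26.5% higher, and the members' median log2 fold change was -0.746 against 0.03 over all genes. Spic was 14.6 and 17.8 TPM in controls and 2.55 and 2.44 TPM with dTAG13, and fell by 2.51 ± 0.18 on the log2 scale (adjusted p = 0.00011). Etv4 was 7.75 and 6.93 TPM against 2.22 and 2.52 TPM, and fell by 1.48 ± 0.17 (adjusted p = 0.000581). In both genes the treated libraries lay well below the controls.

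Elk4 was 0.94 and 1.40 TPM in 2iES controls and 0.37 and 0.58 TPM with dTAG13, on 19 to 68 counts, and fell by 1.19 ± 0.38 (adjusted p = 0.0337). It was called in 6 of 13 alternatives: DESeq2 gave an adjusted p of 0.0997, and the comparison gave 0.0769 without DMSO replicate 2, 0.244 without dTAG13 replicate 1 and 0.0649 without dTAG13 replicate 2. Elf1 was 1.37 and 1.53 TPM against 6.09 and 5.99 TPM, and rose by 2.08 ± 0.16 (adjusted p = 0.000129). Elf1 was thus called higher in both the ICM and 2iES.

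A further 3 members passed the adjusted p in 2iES with less than a 2-fold change. Etv5 was 12.7 and 14.1 TPM in controls and 18.2 and 17.3 TPM with dTAG13, and rose by 0.46 ± 0.12 (adjusted p = 0.017). It missed the threshold on log2(TPM + 0.1) (0.41, adjusted p = 0.058) and on log2(TPM + 1) (0.38, adjusted p = 0.0562). Elf3 was 12.8 and 10.2 TPM against 6.21 and 4.93 TPM, and fell by 0.98 ± 0.18 (adjusted p = 0.00452). Elf3 passed the 2-fold limit without DMSO replicate 2 (-1.15) or without dTAG13 replicate 1 (-1.04). Elf2 was 27.9 and 22.5 TPM against 9.91 and 9.80 TPM, and its counts fell by 0.85 ± 0.16 (adjusted p = 0.00437). Without dTAG13 replicate 1 the adjusted p was 0.101 for Etv5 and 0.0912 for Elf2, and without dTAG13 replicate 2 it was 0.0925 for Etv5, 0.071 for Elf3 and 0.0666 for Elf2. On log2(TPM + 0.1) the value of Elf2 was -1.34 and called, as its effective length went from a mean of 579 to 776 bases. Etv6 was 1.23 and 1.97 TPM against 1.03 and 0.94 TPM (-0.64 ± 0.26, adjusted p = 0.0781). It passed the adjusted p with no filter on low counts (-0.72, adjusted p = 0.00788). Over the alternatives its value ran from -0.99 (without DMSO replicate 1) to -0.27. Ets2 (0.82 and 1.10 TPM against 1.04 and 1.01 TPM) and Elk1 (0.15 and 0.33 TPM against 0.25 and 0.33 TPM) overlapped between treatments.

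Whether the effect of dTAG13 on a member differed between neighbouring stages was tested as an interaction over all 18 libraries. A member could enter a comparison through its counts at other stages. Etv4 held at most 6 counts in any late two-cell or morula library, and Ets2 at most 12 in the morula. The comparison of these stages could hardly detect a change in either. Between the late two-cell stage and the morula 1 of 10 members differed, against 6.47% of 21915 genes. This was Spic, whose log2 fold change was lower at the late two-cell stage by -1.19 ± 0.29 (adjusted p = 0.0153). That call held in 14 of 25 alternatives. It was lost with the 2 stages alone (adjusted p = 0.0954), with library totals (0.0521), on log2(TPM + 1) (0.0644), without any 1 of the 4 ICM libraries (0.0565 to 0.0583), and without late two-cell DMSO replicate 1 (0.0588) or 2 (0.0669), late two-cell dTAG13 replicate 3 (0.0742) or morula dTAG13 replicate 1 (0.0621). Elf3 had a difference of 0.62 ± 0.25 (adjusted p = 0.181) and passed with DESeq2 (0.80, adjusted p = 0.0222), with no filter (0.78, adjusted p = 0.0171), and without replicate 2 of late two-cell DMSO (0.0494) or dTAG13 (0.0449).

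Between the morula and the ICM 3 members differed, against 16.1% of all genes. Spic differed by 2.18 ± 0.32 (adjusted p = 0.000149), with 1.04 in the morula and -1.08 in the ICM. Etv5 differed by 2.05 ± 0.25 (adjusted p = 2.88e-05), with -0.38 and -2.36. Elk4 differed as well (adjusted p = 0.000122); its fitted size rests on 2 and 0 counts in the treated ICM, depends on the prior count and is not read as a fold change. These 3 calls held in all 25 alternatives. Elf1 had a difference of -0.97 ± 0.36 (adjusted p = 0.0747) and passed in 8 of them, among them the 2 stages alone (-1.06, adjusted p = 0.0105) and the fits without late two-cell DMSO replicate 2 (0.0351) or 3 (0.0445) or without late two-cell dTAG13 replicate 1 (0.0271) or 3 (0.0499). Elf2 (-0.68 ± 0.41, adjusted p = 0.299) passed with the 2 stages alone (-0.77, adjusted p = 0.0214). Etv4 (1.86, not past the threshold) passed only on log2(TPM + 1) (1.59, adjusted p = 8.39e-05).

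Between the ICM and 2iES 5 members differed, against 17.4% of all genes. Etv5 differed by -2.86 ± 0.24 (adjusted p = 9.74e-07): it fell in the ICM and rose in 2iES. Elk4 fell at both stages and further in the ICM (adjusted p = 0.000639). Spic fell at both and further in 2iES, by a difference of 1.38 ± 0.35 (adjusted p = 0.0104). Elf3 differed by 1.02 ± 0.28 (adjusted p = 0.0164), but not without 2iES DMSO replicate 1 (0.88, adjusted p = 0.0728) or 2iES dTAG13 replicate 2 (0.85, adjusted p = 0.0888). Etv6 differed by 1.04 ± 0.35 at adjusted p = 0.0474 and held in 16 of 25 alternatives. It was lost with the replicate number as a block (1.00, adjusted p = 0.101), on log2(TPM + 1) (0.77, adjusted p = 0.0569), without any 1 of the 4 ICM libraries (0.0792 to 0.132), and without 2iES DMSO replicate 2 (0.238), 2iES dTAG13 replicate 1 (0.0942) or 2 (0.147). For Etv4, called lower at both stages, the difference was -0.50 ± 0.61 (adjusted p = 0.681), and for Elf1, called higher at both, it was -0.92 ± 0.34 (adjusted p = 0.0703). Elf1 passed with the 2 stages alone (-0.90, adjusted p = 0.00354) and without late two-cell dTAG13 replicate 1 (-0.88, adjusted p = 0.0441). Elf2, with a difference of 0.84 ± 0.40 (adjusted p = 0.173), passed with the 2 stages alone (0.86, adjusted p = 0.0024), on log2(TPM + 1) (1.27, adjusted p = 0.0258) and without late two-cell DMSO replicate 2 (0.87, adjusted p = 0.0256). With the 2 stages alone 7 members differed in all. The share of all genes in that fit is not given here, so this count has no background beside it.

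**Figure D4:**
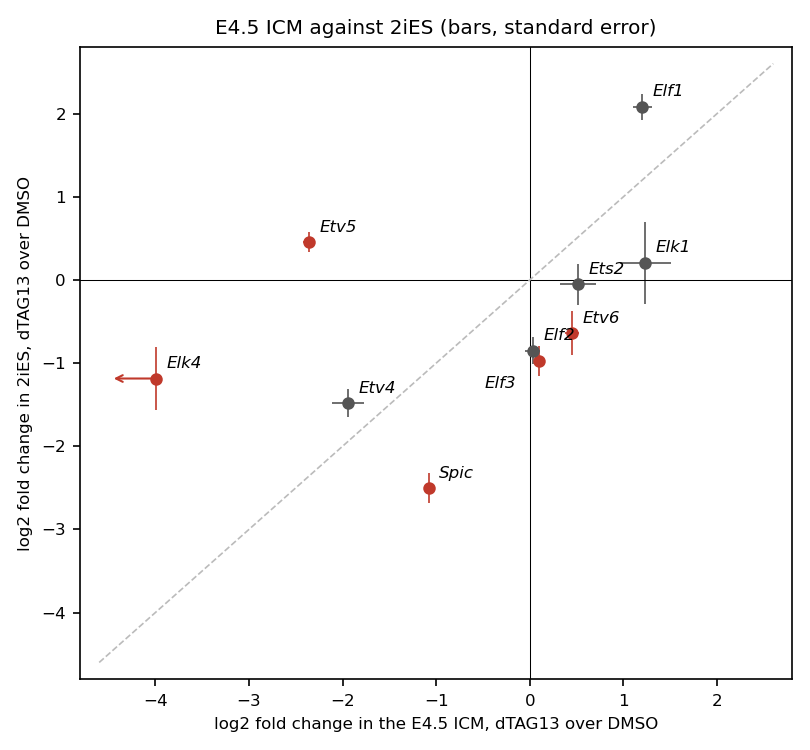
Log2 fold change under dTAG13 in 2iES (vertical) against the E4.5 ICM (horizontal) for the 10 factors, with standard errors; red marks factors whose change differed between the 2 in the interaction test, and the dashed line marks equal change. Etv5 sits in the upper left (-2.36 and 0.46), Elf1 in the upper right (1.20 and 2.08), and the arrow on Elk4 marks a bound.

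Other ETS genes gave a measure of the family around these 10. Of 16 listed and found in the files, Gabpa included, 10 were tested in the ICM, where 4 were lower and 3 higher at the adjusted p, near the 38.5% and 38.4% of all genes. Etv1, the third PEA3 factor, fell by 2.02 ± 0.14 in the ICM (adjusted p = 7.04e-16), beside Etv4 and Etv5. The repressor Etv3 fell by 1.09 ± 0.21 there, by 4.01 ± 0.42 at the late two-cell stage (adjusted p = 0.000161) and by 4.04 ± 0.29 in 2iES (adjusted p = 0.000113). Elk3, the other ternary complex factor, fell by 1.23 ± 0.17 in the ICM (adjusted p = 5.71e-08). Elf5, a trophoblast factor, rose by 4.89 ± 0.35 in the ICM (adjusted p = 2.77e-15), from a mean of 0.10 to 6.30 TPM. The size of that rise rests on a control level near 0. Elf4 rose by 1.63 ± 0.18. Etv2 fell by 2.09 ± 0.43. In 2iES 9 were tested, with Etv3 and Etv2 lower and Gabpa and Ets1 higher (all genes 28.1% and 26.5%). At the late two-cell stage 8 were tested, with Etv3 lower and Gabpa higher (all genes 7.24% and 1.32%). In the morula 7 were tested and none passed in edgeR (2 at an unadjusted p under 0.05) or DESeq2.

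Genes downstream of the ERK pathway were listed beside the PEA3 and ternary complex factors. Of 14 ERK feedback genes, 13 were tested in the ICM, where 7 fell and 1 rose at the adjusted p, against 38.5% and 38.4% of all genes (median log2 fold change -0.405). By the full call, with a 2-fold change, 2 were lower and 0 higher. The dual-specificity phosphatase Dusp4 fell by 0.34 ± 0.07 and the Sprouty gene Spry1 by 0.56 ± 0.13. Dusp6 and Dusp5 passed in neither direction. Spry2, named after its value was seen as the 1 gene that rose, rose by 0.33 ± 0.07. Spry4, another Sprouty gene named after its value was seen, fell by 1.08 ± 0.08 (adjusted p = 1.01e-14). In 2iES 12 were tested, of which 3 fell and 5 rose, against 28.1% and 26.5% of all genes (median 0.323), and 2 were called lower and 4 higher. There Dusp6 fell by 0.89 ± 0.18 (adjusted p = 0.00647), Spry4 fell by 1.11 ± 0.19 (adjusted p = 0.00301) and Spry2 rose by 1.41 ± 0.12 (adjusted p = 0.000201). Of 13 genes listed for SRF, its cofactors and its targets (12 found in the files), 12 were tested in the ICM, with 6 lower and 5 higher at the adjusted p (all genes 38.5% and 38.4%) and 2 and 1 called. In 2iES 10 were tested, with 4 lower and 3 higher (all genes 28.1% and 26.5%) and 2 and 2 called. Srf itself rose by 0.63 ± 0.14 in the ICM and fell by 0.72 ± 0.25 in 2iES (adjusted p = 0.0432). The immediate early gene Fos fell by 0.20 ± 0.08 in the ICM and rose by 2.35 ± 0.23 in 2iES. In late two-cell embryos and morulae no gene of either list passed in edgeR. At an unadjusted p under 0.05 the ERK feedback list had 3 and 1 genes at these stages and the SRF list 0 and 1, and 2 ERK feedback genes, Phlda1 and Spry4 (named after their values were seen), passed in DESeq2 at the earlier stage.

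Over the 18 libraries, on log2(TPM + 1), the gene most like Elk4 was Cdkl2 (Pearson r = 0.997), then Zfp54 (0.986), among 18881 genes compared. Spic was most like Pphln1 (0.985) and Spink2 (0.984), Elf3 most like Ggt1 (0.987) and Tfeb (0.986), and Etv4 most like Nnmt (0.986) and Banf2os (0.979). Lower values were found for Elf1 with Tob1 (0.969) and Cpne1 (0.956), Etv6 with Parp10 (0.973) and Htatsf1 (0.972), Ets2 with Resf1 (0.953) and Pam (0.93), Etv5 with Itpk1 (0.932) and Gjc1 (0.929), Elf2 with Miip (0.929) and Edc3 (0.898), and Elk1 with Speer4c (0.887) and Spns2 (0.881). Among the members themselves Elk4 and Spic were most alike (0.891), followed by other pairs such as Etv4 and Etv5 (0.769), and Etv4 and Spic least (-0.727). These values describe the same 18 libraries, in which stage is the main axis.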

How the data were processed

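RNA was measured with SMART-Seq v4 in 18 libraries (unstranded, paired reads of 75 bases). Per the study's methods, the authors trimmed reads (Trimmomatic 0.39 in the submitters' processing notes), aligned them with STAR and quantified genes with RSEM, and deposited 1 table a library with expected counts, TPM, FPKM and effective length. Symbols were matched to GRCm38 gene IDs (54487 of 55385 with version, 55144 without). Rounded expected counts were tested with edgeR 4.0.16 (quasi-likelihood, TMM, R 4.3.3), with genes kept at 10 counts or more in as many libraries as the smaller group, and p-values were adjusted by Benjamini-Hochberg over all genes tested. Called means adjusted p under 0.05, fold of at least 2 and mean FPKM of at least 1. DESeq2 1.42.0, and limma 3.58.1 on log2(TPM + 0.1) and log2(TPM + 1), were alternatives. Tables used Python 3.11.15, pandas 2.3.3, numpy 2.4.6 and scipy 1.17.1. The code was tested on simulated data. The members and lists were chosen with earlier results of these data known. All 10 members are named, other ETS genes where they passed, and in other lists up to 4 in list order. A few further genes were named after their values were seen. The main fits did not pair libraries by replicate number. Deviations of same-numbered libraries correlated by 0.006 to 0.055, and by -0.136 in 2iES. With 2 libraries a group the check gives 1 value a stage, so it cannot exclude pairing. Of 45 samples the others, which hold no RNA table, were not analysed here.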

Additional observations from a re-analysis of the deposited data

Results flagged for a closer look

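The effect of dTAG13 differed between neighbouring stages, by an interaction test over all 18 libraries, in 9 cases among the members. Spic differed between the late two-cell stage and the morula (-1.19). Between the morula and the E4.5 ICM, Spic (2.18), Etv5 (2.05) and Elk4 (4.79, a fitted value against 2 and 0 counts that depends on the prior count and is neither a fold change nor a bound) differed. Between the E4.5 ICM and 2iES, Etv5 (-2.86), Elk4 (-4.25, fitted against the same low counts and likewise no fold change or bound), Spic (1.38), Elf3 (1.02) and Etv6 (1.04) differed. Each value is the log2 fold change at the first stage minus that at the second.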

How the results depend on the processing

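Of 97 member results, 37 passed their threshold. All 37 kept their direction in every alternative run that gave a value, and 24 kept their side of the threshold in all of these. Runs in which a member was not tested are left out of these counts. Elk4 in the ICM had values in 10 alternatives, where the other ICM members had 12. Members called higher in the morula numbered 1 (Spic) with DESeq2, with no filter, with all 18 libraries in 1 fit and with the replicate block, and 0 to 1 with a library left out. Members called higher in the ICM numbered 0 on log2(TPM + 1), 1 with all 18 libraries, 1 when the FPKM limit used the mean of both treatments, 5 with no fold threshold, and 1 to 2 with a library left out. With no fold threshold 5 members were lower and 2 higher in 2iES. From the morula to the ICM 0 members were lower on log2(TPM + 1). Between 2iES and ICM controls 5 were lower and 0 higher with library totals, likewise 5 and 0 on log2(TPM + 1), and 1 to 3 lower and 0 to 1 higher with a library left out. Members whose effect differed between the late two-cell stage and the morula numbered 0 with library totals, on log2(TPM + 1) and with the 2 stages alone, 2 with DESeq2 and with no filter, and 0 to 2 with a library left out. Between the morula and the ICM 5 differed with the 2 stages alone, and between the ICM and 2iES 7 with the 2 stages alone and 3 to 6 with a library left out. Shares of all genes under these alternatives are not given, so the counts of members have no background beside them. The causes were not tested.

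Direction turned only in members that did not pass. At the late two-cell stage Spic was 0.0188 with library totals, 0.0598 with upper-quartile scaling and 0.061 on both TPM scales (-0.118 to 0.0361 with a library left out), Etv5 was -0.0001 with all 18 libraries (-0.125 to 0.0965), Elk4 was 0.0292 with upper-quartile scaling, and Elf1 ran from -0.0487 to 0.343 with a library left out. In the same way Elk1 ran from -0.39 to 0.97 in the morula and from -0.32 to 0.91 in 2iES, and Elf2 from -0.0155 to 0.144 in the ICM. In 2iES Ets2 was 0.13 with upper-quartile scaling, 0.10 on log2(TPM + 0.1), 0.0507 on log2(TPM + 1) and 0.0017 with all 18 libraries (-0.30 to 0.15).

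The replicate block changed 2 calls among the members, Spic in the morula and Etv6 between the ICM and 2iES. A crossed pairing in 2iES, chosen after seeing the data, called 3 members lower and 1 higher. With 2 libraries a group, a lone library is assumed to vary like the others when 1 is left out. Counts under about 70 limit Elk1, Elk4 after the morula and Ets2 before the ICM.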
